A study of Rattus norvegicus with 36 samples.

Results

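The genes described here are 10 genes of natural killer (NK) cells and other cytotoxic lymphocytes: Prf1, Gzmb, Gzma, Gzmk, Gzmm, Nkg7, Klrd1, Klrk1, Ncr1 and Ifng. They were selected by gene name from the 25597 gene names on the arrays. A total of 11 probes carried these names, with Gzmb represented by 2 probes and every other gene by 1, and all 10 genes passed the filter on dim probes that left 23940 genes for testing. Gene expression was measured in the accessory lobe of the lung of female Sprague Dawley rats, 13 weeks old when instilled. Rats received either DQ-12, a quartz used as a reference crystalline silica, at a single dose of 10 mg per rat by endotracheal instillation, or the vehicle alone, and their lungs were taken 1 day (D1), 30 days (D30) or 180 days (D180) later. Each of the 6 groups held 6 rats, with 1 one-colour Agilent array per rat, so 36 arrays were used. No transgene or mutation was involved, and the samples were whole lobe tissue, not sorted cells. In such tissue, fewer cells of a type and less RNA per cell cannot be told apart.

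Cytotoxic lymphocytes kill target cells by releasing granules at the point of contact. Perforin (Prf1) opens pores in the target membrane, and granzymes (the Gzm genes), which are serine proteases, enter and trigger cell death. NK cells decide whether to kill by weighing activating receptors such as NKG2D (Klrk1) and NKp46 (Ncr1) against receptors that recognise self class I molecules, among them the CD94/NKG2 heterodimers that contain CD94 (Klrd1) and, in rodents, the Ly49 family. Once activated, NK cells and T cells secrete interferon gamma (Ifng), the cytokine that activates macrophages. In the lung, NK cells are a resident lymphocyte population.

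Each value below is a log2 signal, the log2 of the background-corrected brightness of a probe after quantile normalisation, and each log2 difference is the DQ-12 mean minus the vehicle mean. Levels were compared between rats for the same probe, never between probes. Probes measured short stretches of each transcript. The probes of Klrd1, Klrk1 and Ifng, of 60 bases each, are shown because Klrd1 was the member that passed the test at D1, Klrk1, its neighbour in the NK gene complex, did not pass, and Ifng lay near background; capitals in the Klrk1 probe mark a closing TAA triplet.
Klrd1: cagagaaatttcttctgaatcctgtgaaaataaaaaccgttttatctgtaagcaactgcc
Klrk1: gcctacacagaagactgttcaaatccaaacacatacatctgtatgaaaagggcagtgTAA
Ifng: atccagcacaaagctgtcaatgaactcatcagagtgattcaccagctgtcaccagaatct
In the GRCr8 assembly, Klrd1 lies at chr4:164730833-164742539 and Klrk1 close by at chr4:164767377-164778453, and Ifng lies at chr7:55789180-55793216. Their probes hold 35%, 40% and 45% of G and C bases, respectively.

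The arrays were of similar quality, with between 51.4% and 75.5% of probes well above background on each. Correlations between arrays of the same group ranged from 0.956 to 0.989. All 10 lung markers examined (genes of alveolar, airway and endothelial cells, such as the surfactant genes Sftpc and Sftpb) were well above background on every array. The arrays came from 19 slides and 11 scan dates, and these were not balanced: at D1 all 6 DQ-12 arrays but only 1 vehicle array were scanned on the same date. At D30, one scan date held 4 vehicle arrays and 1 DQ-12 array, and another held 2 vehicle and 5 DQ-12 arrays. At D180, 2 dates held both groups, with 3 and 3 arrays on the first and 1 and 1 on the second.

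The first question was whether DQ-12 changed the cytotoxic genes at any time. None of the 10 genes reached a 2-fold difference with an adjusted p under 0.05 (limma, Benjamini-Hochberg over 23940 genes), a rule met by 3.07% of all genes at D1, 1.05% at D30 and 3.63% at D180. With the adjusted p alone, 1 gene passed at D1 (Klrd1, which fell), 0 at D30 and 0 at D180, where 16.2%, 3.98% and 16.8% of all genes passed. At an unadjusted p under 0.05 the counts were also 1, 0 and 0. At D1 all 10 genes had a lower mean after DQ-12, with a median log2 difference of -0.28 against -0.01 over all genes tested. At D30, 8 of 10 were lower (median -0.24, all genes -0.02), and at D180 they were split 5 and 5 (median 0.04, all genes -0.03).

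**Figure D1:**
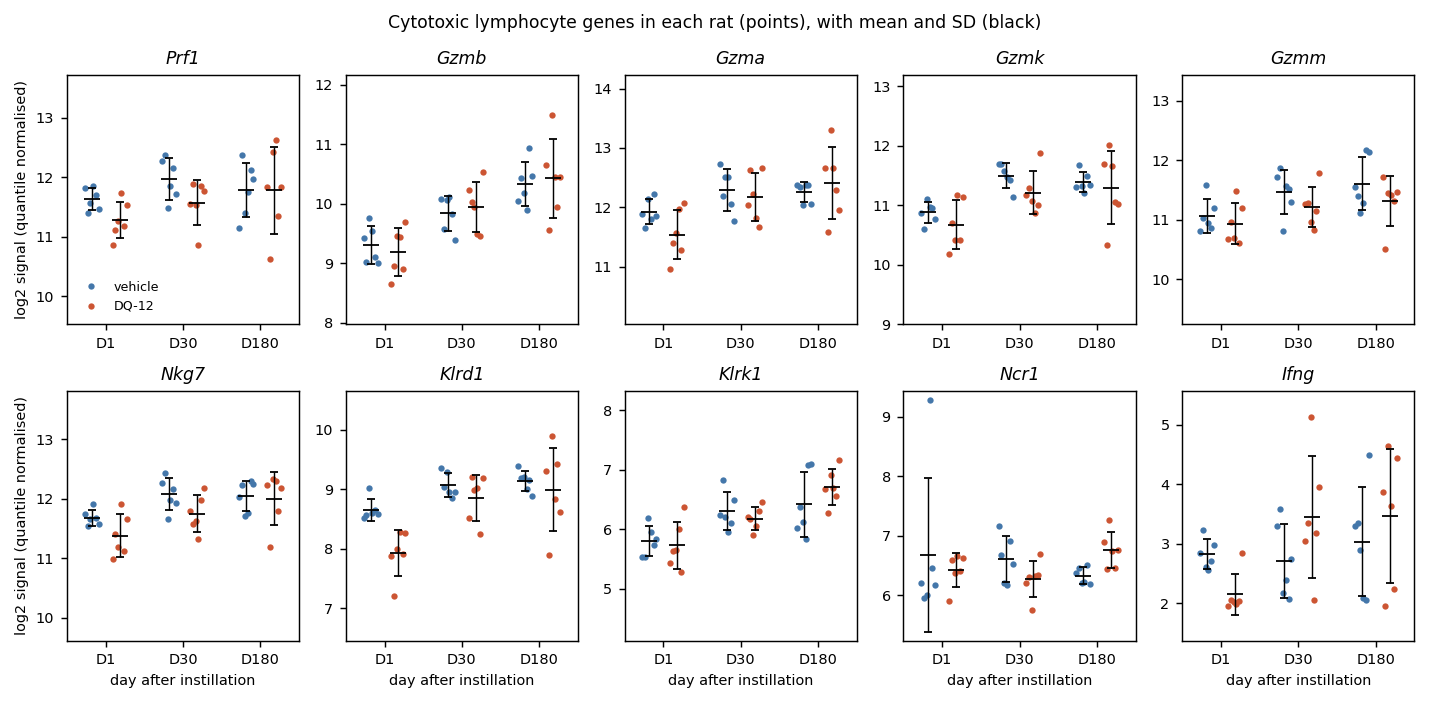
Log2 signal (vertical axis) of the 10 cytotoxic lymphocyte genes in each of 36 rats, vehicle in blue and DQ-12 in red, at D1, D30 and D180 (horizontal axis); black bars give the mean and SD of 6 rats. Klrd1 at D1 is the position where no DQ-12 rat (7.21 to 8.28) overlaps the vehicle rats (8.52 to 9.02), and every panel spans the same number of log2 units.

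Klrd1 encodes CD94, the invariant partner of the NKG2 receptors. At D1 it ranged from 8.52 to 9.02 (median 8.59) in vehicle rats and from 7.21 to 8.28 (median 7.96) in DQ-12 rats, so that the highest DQ-12 rat lay below the lowest vehicle rat. Over all genes, 5.97% showed such a separation in this direction. The mean fell from 8.66 ± 0.18 to 7.92 ± 0.39 (SD, n = 6 per group), a log2 difference of -0.73 (SE 0.22, 95% interval -1.18 to -0.28) and a fold of 0.602, with an adjusted p of 0.0207 in limma. The exact two-sided permutation p was 0.00216, the smallest that 6 against 6 rats allow; 30 such tests were run (10 genes at 3 times) and their p-values are given unadjusted. The lowest DQ-12 rat was replicate 2 at 7.21, and without it the log2 difference was -0.59 and the adjusted p 0.0789. Against the 1 vehicle array scanned on the same date the difference was -1.1, and with the scan date as a block the adjusted p was 0.271. At D30 the groups overlapped (8.85 to 9.36 in vehicle, 8.24 to 9.2 in DQ-12; log2 difference -0.22, SE 0.22), and so they did at D180 (8.89 to 9.39 and 7.89 to 9.9; -0.14, SE 0.22).

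The pore-forming protein perforin, encoded by Prf1 at chr20:29789040-29794550, was measured well above background on all 36 arrays. At D1 Prf1 ranged from 11.4 to 11.86 (median 11.64) in vehicle rats and from 10.87 to 11.74 (median 11.22) after DQ-12, with 4 of 6 DQ-12 rats below every vehicle rat. The log2 difference was -0.35 (SE 0.25, adjusted p 0.367 in limma) and the exact permutation p was 0.0411. At D30 the medians were 12 and 11.67 with overlapping ranges (log2 difference -0.4, SE 0.25), and at D180 they were 11.86 and 11.84 (-0.01, SE 0.25).

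The granzymes and Nkg7 had small differences as well. Granzyme A and granzyme K, trypsin-like proteases encoded near each other at chr2:46473763-46485696 and chr2:46573997-46582015 (GRCr8), had D1 log2 differences of -0.39 (SE 0.22) and -0.2 (SE 0.2). For Gzma, 4 of 6 DQ-12 rats lay below the lowest vehicle rat (11.66), yet the other two reached 11.97 and 12.07, within the vehicle range. The 4 low rats were on one slide and the 2 higher rats on another, and for 8 of the 10 members both rats of the second slide exceeded all 4 of the first. Granzyme B, the protease that activates caspases in the target cell (chr15:34459007-34462469), differed by -0.12 at D1, 0.11 at D30 and 0.1 at D180 (SE 0.24 each), and its second probe by 0.19, -0.02 and 0.22. Granzyme M (Gzmm, chr7:10661683-10667448) was lower by group mean at all 3 times, at -0.13, -0.26 and -0.29 (SE 0.21). With the slide as a block, Gzmm differed by 0.44 at D180. Nkg7, a membrane protein of cytotoxic granules (chr1:102981497-102982564), differed by -0.3, -0.33 and -0.04 (SE 0.18), and at D30 its DQ-12 rats spanned 11.32 to 12.19 (median 11.71) against 11.67 to 12.43 (median 12.08). None of these differences passed the adjusted p.

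Among the activating receptors, Klrk1 (NKG2D, the receptor for stress-induced ligands) differed by -0.07, -0.12 and 0.29 (SE 0.2), and Ncr1 (NKp46, chr1:78657409-78665255) by -0.26, -0.34 and 0.44 (SE 0.33). The Ncr1 mean of the D1 vehicle group rested on 1 rat, replicate 4, at 9.29, where the other 5 lay between 5.95 and 6.46. Without that rat the D1 difference changed sign to 0.27. At D180 Ncr1 ranged from 6.19 to 6.51 (median 6.3) in vehicle rats and from 6.45 to 7.27 (median 6.76) in DQ-12 rats, with 4 of 6 DQ-12 rats above all vehicle rats. The exact permutation p there was 0.0108 and the limma adjusted p was 0.435.

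Interferon gamma transcript was scarcely detected. Its probe was well above background on 0 of 12 arrays at D1, on 0 vehicle and 2 DQ-12 arrays at D30, and on 1 array of each group at D180. At D1 the signal lay between 2.57 and 3.24 in vehicle rats and between 1.95 and 2.84 in DQ-12 rats, all of it not well above background. The exact permutation p was 0.00866 there, and the limma adjusted p was 0.33, or 0.019 with each time point fitted alone. The D30 ranges were 2.08 to 3.59 (vehicle) and 2.06 to 5.14 (DQ-12), and the D180 ranges 2.06 to 4.5 and 1.96 to 4.65, so the groups overlapped. With both groups below background at D1, no fold is given.

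**Figure D2:**
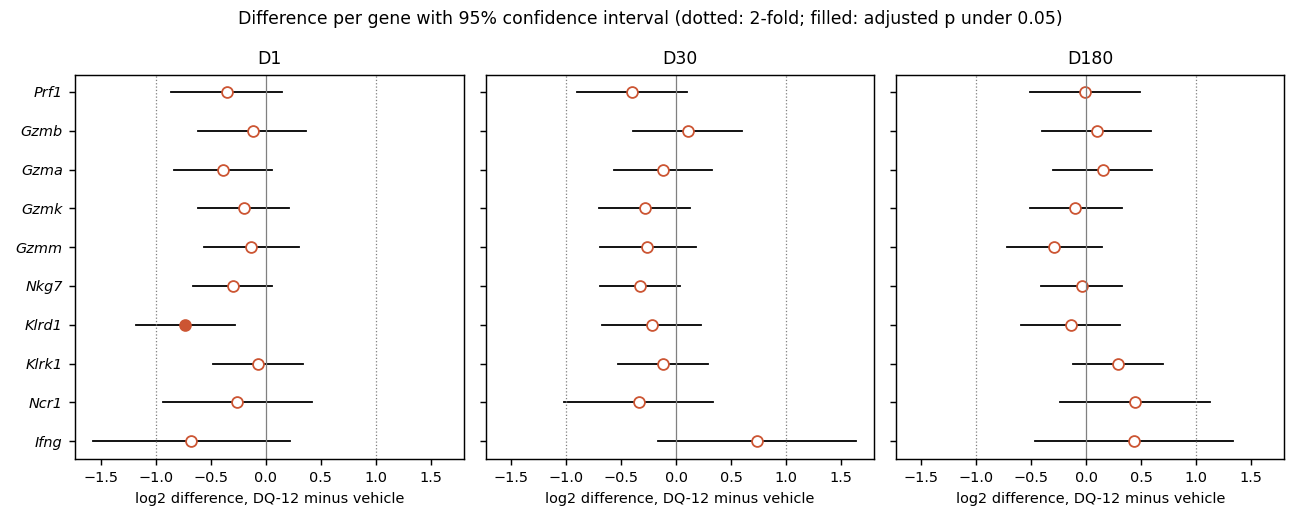
Log2 difference between DQ-12 and vehicle (horizontal axis) with its 95% confidence interval for each of the 10 genes at D1, D30 and D180. Klrd1 at D1 is the only filled point, meaning an adjusted p under 0.05, and 8 of 10 intervals at each time lie within the dotted 2-fold lines.

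The intervals come from the fit without a slide or scan date term. At each time, 8 of 10 had a 95% interval within a 2-fold change either way. With the slide as a block, some differences lay outside these intervals. At D180 Gzmk differed by 0.49 (interval -0.51 to 0.32), Gzmm by 0.44 (-0.72 to 0.14) and Nkg7 by 0.47 (-0.41 to 0.32). Prf1, at 0.09, stayed within its interval (-0.51 to 0.49). The only slide with both groups at D180 held 1 array of each. Among the 9 genes measured above background, the lowest bound was -1.18 (Klrd1 at D1) and the highest 1.12 (Ncr1 at D180). None of the 10 genes had a DQ-12 effect that differed between times at an adjusted p under 0.05, by the interaction terms of the same model. The one term under 0.05 before adjustment was that of Ifng between D1 and D30 (1.42, SE 0.62, adjusted p 0.249 in limma). Over all genes, 2.18% had an effect that differed between D1 and D30, 0.242% between D30 and D180, and 4.54% between D1 and D180.

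The spread between rats differed between groups, but no test of spread was run and the share over all genes was not counted. The SD after DQ-12 exceeded that of vehicle rats in 8 of the 9 genes above background at D1, 6 at D30 and 7 at D180. At D180 the median SD was 0.6 against 0.26. For Klrd1 the SDs were 0.71 and 0.17, for Gzmk 0.61 and 0.17, and for Gzma 0.6 and 0.16. The rats farthest from the group lay on opposite sides: DQ-12 replicate 2 lay 0.88 log2 units below its group on average over the 10 genes, and replicate 3 lay 0.66 above it. Without these 2 rats the D180 DQ-12 SDs were 0.38 for Klrd1, 0.37 for Gzmk and 0.34 for Gzma. Both arrays were scanned on the same date, and 66.5% and 66.8% of their probes were well above background.

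Some of the members moved together from rat to rat, and others followed less. Each rat's deviation from its group mean was compared between genes over 36 rats, which share the array and its normalisation and in part the slide. Gzmk and Nkg7 followed the mean of the other members most closely, Gzmk with the higher Pearson r and Nkg7 with the higher rho. Gzmk had a Pearson r of 0.88, a Spearman rho of 0.8, and an r of 0.8 without D180 DQ-12 replicates 2 and 3, the rats farthest from the median. Nkg7 had 0.86, 0.84 and 0.82, Gzmb 0.78, 0.69 and 0.67, and Prf1 0.76, 0.74 and 0.64. Klrd1, Ncr1 and Ifng followed least, with an r of 0.51, 0.28 and 0.46, and of 0.17, 0.23 and 0.27 without these rats. With deviations taken within group and slide, a setting chosen after the values were seen, over the 21 rats that shared both with another rat, r was 0.87 for Gzmk, 0.83 for Nkg7 and Gzma, 0.75 for Prf1 and 0.67 for Gzmb, and it was 0.36 for Klrd1, 0.32 for Klrk1, 0.26 for Ncr1 and 0.24 for Ifng.

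**Figure D3:**
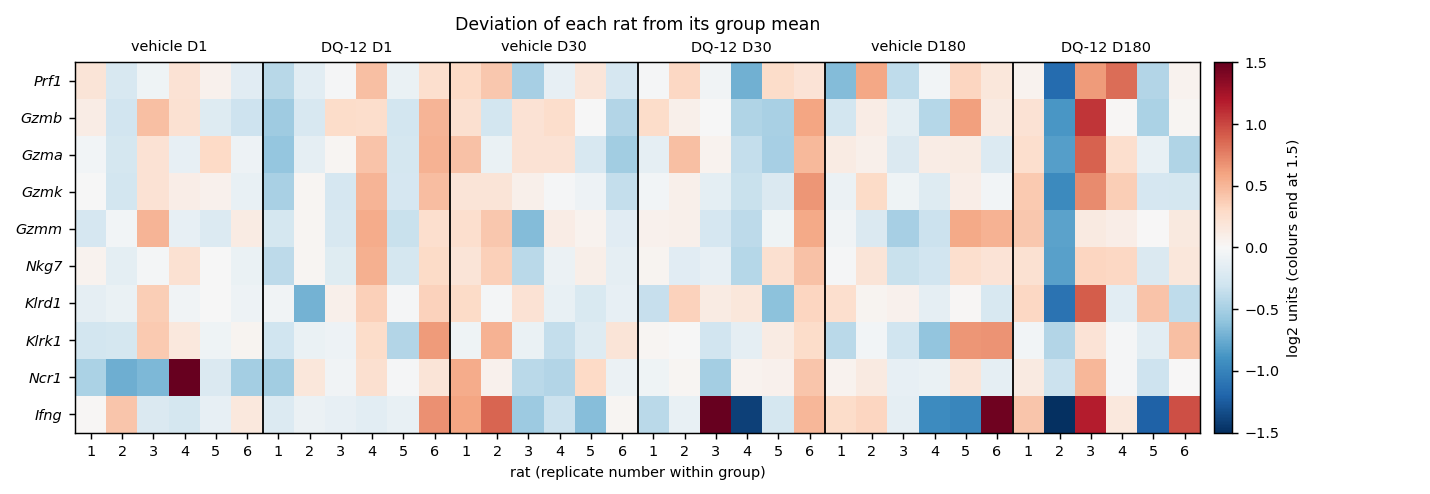
Deviation of each rat (columns, by group and replicate number) from its group mean in log2 units (colour, ending at 1.5) for the 10 genes (rows). D180 DQ-12 replicate 2 is low and replicate 3 high across most rows, and the dark Ncr1 cell is D1 vehicle replicate 4.

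The genes outside the list whose deviations were most like the members' mean were Ccl5, a chemokine of cytotoxic lymphocytes, and Klrb1a, an NK receptor of the NKR-P1 family (r = 0.83 each), then Klrb1c (0.78), Txk and Sh2d1a (0.75 each), Klrc2 and Samd3 (0.74 each), LOC102553861, a granzyme-like gene, and Faslg, the Fas ligand (0.73 each), and RGD2301395 (0.72). These r values were 0.53 to 0.77 without the same 2 rats. Summed over lists, the mean deviation of 27 NK lineage and adaptor genes had an r of 0.72 with that of the members, 29 killer lectin-like receptors 0.66, and 19 other granule and death pathway genes 0.59. Without the same 2 rats these were 0.57, 0.46 and 0.48. Markers of T cells (18 genes) had 0.32, of B and plasma cells (10) 0.08, of neutrophils (11) -0.02, of macrophages (10) -0.05, of mast cells (8) -0.15, and of lung epithelium and endothelium (10) 0.25. Without the 2 rats, T cell markers had 0.28 and lung markers 0.34, and the other marker lists lay between -0.16 and 0.1. The share of probes well above background had 0.18.

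Klrd1 and Klrk1 belong to the killer lectin-like receptors, a family clustered in the NK gene complex. Of 33 killer lectin-like receptors in a list that did not hold Klrd1, 31 had a probe and 29 passed the filter. The counts below leave Klrd1 out. At D1, 5 fell and 1 rose at an adjusted p under 0.05 (20.7% of 29, with 16.2% of all genes; 8.62% of all genes fell), and 21 of 29 had a lower mean (median -0.29, all genes -0.01). The count that fell at D1 was 2 with the scan date as a random block, and with the scan date or the slide as a fixed block 0 did. At D30, 3 fell and 1 rose (13.8%, all genes 3.98%; 1.24% of all genes fell), the 1 that rose being Klra5, which no vehicle array showed well above background. This count was 1 lower and 0 higher without vehicle replicate 1, 2 or 5, without DQ-12 replicate 1, or with the scan date as a random block, it was 1 lower and 1 higher without DQ-12 replicate 4, and 2 lower and 0 higher without DQ-12 replicate 2. At D180, 6 rose and 0 fell (20.7%, all genes 16.8%; 7.81% of all genes rose) and a median of 0.15.

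**Figure D4:**
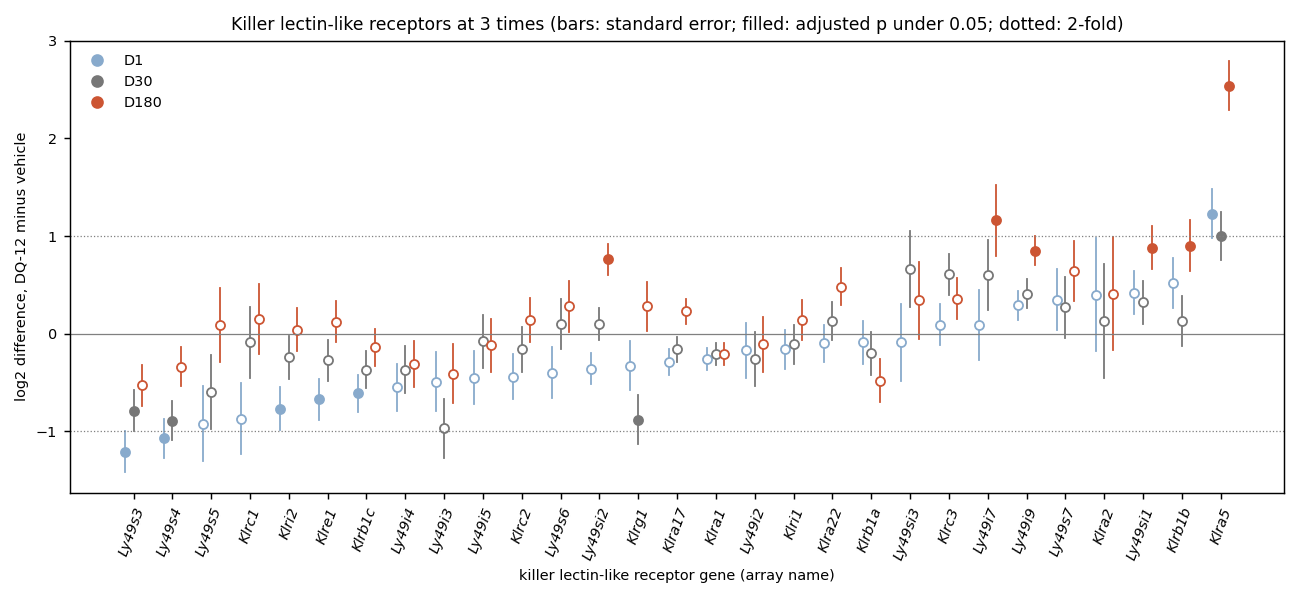
Log2 difference between DQ-12 and vehicle (vertical axis, bars are 1 SE) for 29 killer lectin-like receptor genes (horizontal axis, ordered by the D1 difference) at D1, D30 and D180; filled points have an adjusted p under 0.05 and dotted lines mark a 2-fold change. Ly49s3 and Ly49s4 lie lowest at D1 (-1.21 and -1.07), and Klra5 lies highest at D180 (2.54).

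Ly49 genes are closely related, and a probe may bind several of their transcripts. The probes of 4 of them, chosen among those that fell at D1 or rose at D180, are printed for comparison with each other. The probes were not compared with transcripts, so binding to several transcripts was not tested. Capitals mark the 6 bases that differ between Ly49si1 and Ly49si2 in their 42 shared positions, whereas the best alignments of the other pairs were 40% to 80% identical.
Ly49s4: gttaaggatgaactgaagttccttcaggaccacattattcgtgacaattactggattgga
Ly49si1: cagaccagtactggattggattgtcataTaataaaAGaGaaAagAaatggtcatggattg
Ly49si2: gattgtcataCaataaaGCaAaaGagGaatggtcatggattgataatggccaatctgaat
Ly49i9: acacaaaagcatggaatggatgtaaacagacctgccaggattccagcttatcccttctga
The transcripts that the array design lists for the Ly49s4 probe belong in GRCr8 to Ly49i3 and Ly49i4, those of the Ly49i9 probe to Klra17 and Ly49si1, and those of the Ly49si2 probe to Ly49si2 and Ly49si3. The transcript listed for the Ly49s3 probe matched no symbol in GRCr8. The names below are those of the array and are uncertain within this family.

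The lower receptors at D1 were led by Ly49s3 and Ly49s4, names of activating Ly49 receptors. Ly49s3 ranged from 6.83 to 7.82 (median 7.57) in vehicle rats and from 5.52 to 6.64 (median 6.29) in DQ-12 rats, without overlap. It fell by 1.21 on the log2 scale (SE 0.21, adjusted p 0.000119 in limma). Ly49s4 ranged from 5.59 to 6.56 and from 4.49 to 5.34, also without overlap, and fell by 1.07 (SE 0.2, adjusted p 0.000332). Over all genes, 5.97% showed such a separation in this direction at D1. Ly49s3 and Ly49s4 both passed the 2-fold rule at D1. Both also fell at D30, by 0.79 (adjusted p 0.0263 in limma) and 0.89 (adjusted p 0.00795). At D180 the differences were -0.53 and -0.34 and did not pass. With the scan date as a block no receptor passed at D1 or D30, and Ly49s3 differed by -0.89 and -0.8 and Ly49s4 by -0.81 and -0.88.

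The lectin-like receptors Klri2 (-0.77), Klre1 (-0.67) and Klrb1c (-0.61) also fell at D1, with adjusted p of 0.0127, 0.0288 and 0.0217 in limma. All 6 DQ-12 rats lay below the vehicle rats for Klri2, as for 5.97% of all genes, and 5 of 6 did for Klre1 and Klrb1c. Without D1 DQ-12 replicate 2, the rat with the lowest Klrd1, the count of receptors that fell at D1 was 2 in place of 5. The second probes of Klre1 and Klrb1c differed by -0.32 and -0.21 at D1 and did not pass. The transcripts listed for these second probes carry the gene's symbol in GRCr8, whereas those of the probes used matched no symbol. At D30 Klrg1, an inhibitory receptor of mature lymphocytes, fell by 0.88 (adjusted p 0.0399), with ranges of 5.34 to 6.8 and 4.97 to 5.95. A second Klrg1 probe differed by -0.77 at D30 and did not pass (adjusted p 0.307 in limma).

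None of the 5 receptors that fell at D1 had a change that differed between D1 and D180 (adjusted p 0.13 to 0.335). The receptors that rose at D180 carried other names. Ly49i9 ranged from 7.96 to 8.98 (median 8.31) in vehicle rats and from 9.12 to 9.43 (median 9.2) in DQ-12 rats, and rose by 0.85 (SE 0.15, adjusted p 0.0001). Ly49si1 rose by 0.88 (8.12 to 8.71 against 8.93 to 9.87; adjusted p 0.00481) and Ly49si2 by 0.76 (9.66 to 10.18 against 10.05 to 11.23; adjusted p 0.00091). Its change also differed between D1 and D180 (1.12, adjusted p 0.00339), from -0.36 to 0.76, but a second Ly49si2 probe differed by 0.09 at D1 and by 0.59 at D180 (adjusted p 0.0378), so the probes did not share the sign at D1. Klrb1b rose by 0.9 and Ly49i7 by 1.16 (adjusted p 0.0121 and 0.0226), but for Ly49i7 only 3 vehicle and 4 DQ-12 arrays were well above background.

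The Klra5 probe exceeded background clearly on 5 of 6 DQ-12 arrays at D180 and on 0 vehicle arrays. It was at least 2.34-fold higher there (measured log2 means 2.29 and 4.83, adjusted p 7.63e-09), and at least 1.12-fold higher at D1, where 1 DQ-12 array was well above background. With the scan date as a block, the number of receptors that passed at D180 was 4, and with the slide as a block it was 0.

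Of 27 genes of NK lineage and signalling tested, 3 fell and 1 rose at D1, 1 rose at D30 and 4 rose at D180 (14.8%, 3.7% and 14.8%, near the 16.2%, 3.98% and 16.8% of all genes). Those that fell at D1 were Txk, a kinase of T and NK cells (-0.65, adjusted p 0.00445), Cd226, an activating receptor also called DNAM-1 (-0.6, 0.00792), and Cd244, the receptor 2B4 (-0.58, 0.00929). No DQ-12 rat overlapped the vehicle rats for Txk (8.59 to 9.58 against 9.77 to 9.99) and Cd226 (7.44 to 8.07 against 8.23 to 8.62). Over all genes, 5.97% showed such a separation in this direction at D1. Sh2d1b, an adaptor, rose at D1 by 0.58. At D180 Tyrobp (DAP12) rose by 0.85 (adjusted p 2.03e-06) and Hcst (DAP10) by 0.48 (0.018), and both adaptors are also used by myeloid cells. Slamf7 and Ncr3 rose by 0.84 and 0.56. Of these genes, 0 passed at D1 or D30 and 2 rose at D180 with the scan date as a block, and Txk then differed by -0.77 at D1 (adjusted p 0.325). The transcription factors Tbx21 and Eomes, which define the NK lineage, did not pass at any time.

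Of 19 other granule and death pathway genes, 1 rose and 1 fell at D1, 1 rose at D30, and 5 rose and 2 fell at D180 (10.5%, 5.26% and 36.8%, with 16.2%, 3.98% and 16.8% of all genes). Cst7 (cystatin F, an inhibitor of granzyme-activating cathepsins that neutrophils and macrophages also make) rose at all 3 times, by 0.88, 0.48 and 1.18. At D180 it ranged from 7.12 to 7.62 in vehicle rats and from 8.19 to 8.64 in DQ-12 rats (adjusted p 1.95e-07), a fold of 2.26. With the scan date as a block it differed by 0.62 at D1 (adjusted p 0.351) and by 0.5 at D30 (0.169), and its D30 call was also lost in most fits that left out 1 rat. At D1 Tnfsf10 (TRAIL), a death ligand, fell by 0.72 (12.69 to 13.08 against 10.97 to 12.62; adjusted p 0.0434). That call was lost without any one of vehicle replicates 1, 2, 4, 5 and 6 or DQ-12 replicates 2, 4 and 6, and with the slide or the scan date as a block. At D180 Rab27a, Stxbp2, M6pr and Igf2r rose by 0.33 to 0.51, while Unc13d and Stx11 fell by 0.47 and 0.52. With the slide as a block 1 gene of this list rose at D180 and 0 fell.

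The ligands of NKG2D, which stressed cells display, were higher by group mean for all 5 genes tested at every time. Of these 5, 1 passed the adjusted p at D1, 1 at D30 and 2 at D180 (20%, 20% and 40%, with 16.2%, 3.98% and 16.8% of all genes). Raet1l rose 2.07-fold at D1, 2.11-fold at D30 and 2.99-fold at D180 (adjusted p 0.000411, 0.001 and 7.05e-07), each time with all 6 DQ-12 rats above all vehicle rats, as was seen for 5.25%, 1.81% and 3.86% of all genes. At D180, for example, it ranged from 4.8 to 5.98 in vehicle rats and from 6.49 to 7.33 in DQ-12 rats. Raet1e rose 2.03-fold at D180 (adjusted p 0.00363). The receptor itself, Klrk1, had the differences given above. With the scan date as a block, Raet1l differed by 0.73 at D1 (adjusted p 0.403), 0.97 at D30 (0.0169) and 1.47 at D180 (9.02e-05).

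The list of cytokines and receptors that act on NK cells held 17 genes, the inhibitor gene Il18bp among them. At D1 0 passed, 3 rose at D30 and 5 rose at D180 (17.6% and 29.4%, with 3.98% and 16.8% of all genes). With the scan date as a block, 2 rose at D30 and 3 at D180. Il12b, the shared subunit of interleukins 12 and 23, was at least 2.49-fold higher at D30 than in vehicle rats, none of whose arrays was well above background (measured 1.86 to 4.03 against 4.32 to 5.56). At D180 it was 4.46-fold higher (2.9 to 5.13 against 5.46 to 6.46). Il2ra (CD25) rose by 0.91 at D30 and by 1.36 at D180, and Il18bp, the soluble inhibitor of interleukin 18, by 1.17 at D180. Il27 (1.14) and Il18 (0.38) also rose at D180. Il21 was at least 1.1-fold higher at D30, on 1 DQ-12 array that was well above background.

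The genes that interferon gamma induces rose at D180, when Ifng itself was near background. Of 24 tested, 16 rose and 1 fell (70.8%, with 16.8% of all genes; median log2 difference 0.66, all genes -0.03), against 4 and 1 at D1 and 2 and 0 at D30. The list describes a response that type I interferon shares in part. Cxcl10 rose 3.06-fold at D1, 3.43-fold at D30 and 7.86-fold at D180, the last from 6.07 to 7.42 in vehicle rats to 8.17 to 11.17 in DQ-12 rats. Cxcl11 rose 7.95-fold, the guanylate-binding protein Gbp2 2.46-fold and Cxcl9 2.2-fold at D180 (adjusted p 0.000362, 3.8e-05 and 0.00493). With the scan date as a block 16 rose at D180 and 0 passed at D1, and with the slide as a block 7 rose at D180. Across rats, this list's mean deviation had an r of 0.25 with that of the cytotoxic genes.

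**Figure D5:**
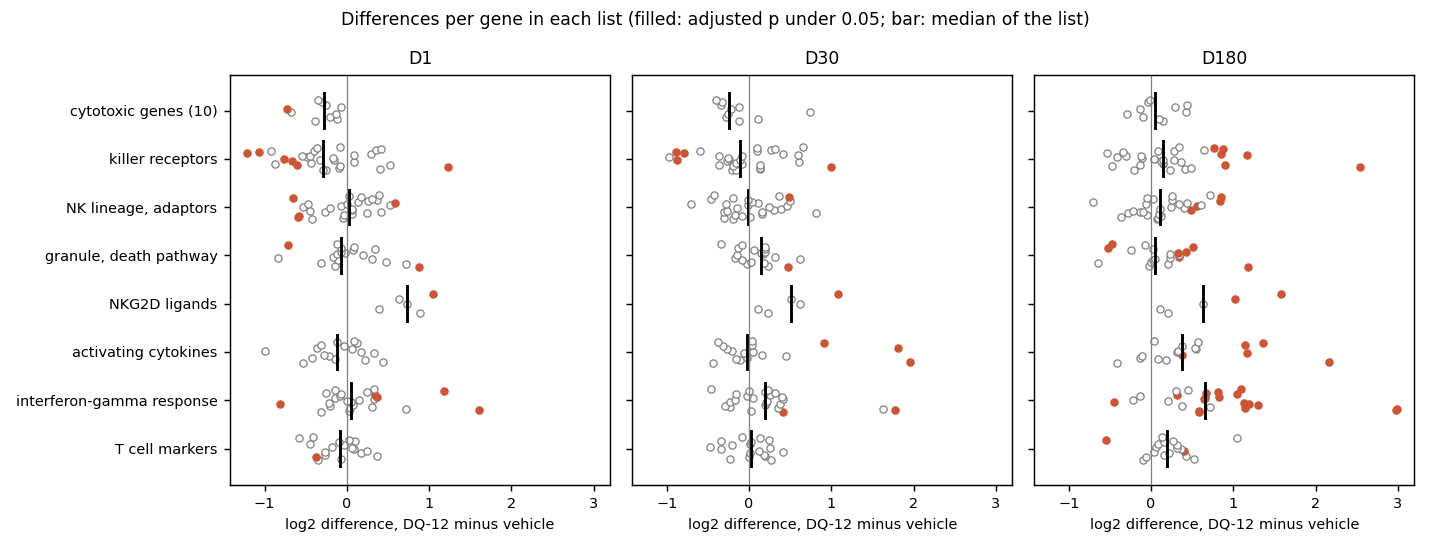
Log2 difference between DQ-12 and vehicle (horizontal axis) for each gene of 8 lists (rows) at D1, D30 and D180; filled points have an adjusted p under 0.05 and the vertical bars are list medians. The 10 cytotoxic genes stay near 0 at D180 (median 0.04) while the interferon gamma response lies at a median of 0.66.

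Markers of other cells moved in the same samples, and their counts stand beside 16.2% of all genes at D1, 3.98% at D30 and 16.8% at D180. T cells also express many of the members, and of 18 T cell markers 1 fell at D1 (Cd247, -0.37), 0 passed at D30, and at D180 Cd4 rose (0.4) and Tcf7 fell (-0.55), which is 11.1% of the list. The mean log2 level of the T cell markers ranged from 8.43 to 8.77 in vehicle rats and from 8.2 to 8.78 in DQ-12 rats at D1, and from 8.5 to 9.01 and from 8.72 to 9.5 at D180. The neutrophil list (11 genes) lay between 5.6 and 6.05 and between 5.83 and 6.64 at D1, and between 5.69 and 6.36 and between 6.71 and 7.2 at D180, where 5 genes rose, led by S100a9 (2.57). Of 10 macrophage markers, 3 rose and 2 fell at D180, with Marco, Siglec1 and Cd68 higher by 2.62, 1.96 and 1.55. Of 10 B and plasma cell markers, 3 rose at D180 (Jchain, Tnfrsf17 and Mzb1, by 2.05 to 2.27), and of 8 mast cell markers 4 rose and 1 fell. At D180, 5 of 10 lung markers fell and 1 rose. With the scan date as a block, 4 neutrophil, 3 macrophage, 2 B and plasma cell and 2 mast cell markers rose at D180. In that fit 1 macrophage, 1 mast cell and 4 lung markers fell, 1 lung marker rose, and 0 T cell markers passed. When single rats were left out, 1 to 4 mast cell markers and 0 to 2 T cell markers rose at D180. The part of the marker shifts in the values of the cytotoxic genes was not tested.

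Vehicle rats also differed between times, when they were of different age. From D1 to D180, Gzmb rose by 1.02 in vehicle rats (SE 0.24, adjusted p 0.00638 in limma), from 9 to 9.76 (median 9.26) to 9.9 to 10.94 (median 10.31) without overlap, and Klrk1 rose by 0.62 (SE 0.2, adjusted p 0.0427). These were 2 of 10 genes, with 10.6% of all genes passing, and Gzmb alone passed the 2-fold rule, as 1.74% of all genes did. Gzmk, Gzmm and Klrd1 differed by 0.51, 0.54 and 0.48 and did not pass (adjusted p 0.102, 0.1 and 0.165). From D1 to D30, 8 of 10 genes were higher by group mean (median 0.4, all genes 0.04), with 0 past the adjusted p, 4 at an unadjusted p under 0.05, and 6.54% of all genes passing. From D30 to D180, 0 passed in limma, with 0 at an unadjusted p under 0.05 and 11.5% of all genes passing. No scan date held vehicle arrays of 2 different times, so age, time and scan date cannot be told apart here.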

How the data were processed

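Total RNA of 36 accessory lung lobes was labelled with Cy3 and hybridised to one-colour Agilent rat arrays, which the submitters' processing notes say were read with Agilent Feature Extraction 12.0.1.1. The authors deposited a scanner file per array with background-corrected intensity values, and a table of log2 values, which matched the log2 intensity minus each array's 75th percentile, centred per probe (median absolute difference 0.00177 over 1641055 values). The study names quantile filtering, quantile normalisation, batch correction, limma and a 2-fold change; the batch variable is not given in the sources used here and no batch term was used.

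Intensities were taken to log2, outlier spots were dropped (232 to 596 per array) and spots averaged per probe. Probes above the 95th percentile of 308 negative control spots on at least 6 arrays were kept (42200 of 45598), quantile normalised, and the brightest probe per gene was used. limma 3.58.1 (R 4.3.3) fitted 6 group means over 23940 genes, with Benjamini-Hochberg adjustment. The submitters name 6 rats per group. Where no array of a group put a probe well above background, a fold is given as a bound, from the dimmest signal that was well above it. Single members were also tested by exact two-sided permutation. Depth has no counterpart on arrays; 6 arrays per group limit the precision. The fit was tested on simulated data.

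All 10 members were named, and from each list, at each time, the up to 3 called genes with the largest change or, without any, the gene with the smallest p, the 10 genes most like the members' mean, and each killer receptor past the adjusted p; other genes named were chosen after their values were seen. The members and lists were chosen with earlier results of these data known. Alternatives covered background correction, scaling, the dim-probe filter, probe choice, blocks for replicate, slide and scan date, and leaving out each rat.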

Additional observations from a re-analysis of the deposited data

Results flagged for a closer look

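Of 60 sets of 6 rats (10 genes in 6 groups), 5 held a rat far from the other five by Dixon's criterion, where chance gives about 1 in 20. The D1 vehicle replicate 4 had an Ncr1 log2 signal of 9.29, with the next rat at 6.46, and its other members were not the highest of the group throughout: its Klrd1 was 8.6 and its Gzma 11.8. The D1 vehicle replicate 3 had a Klrd1 signal of 9.02, with the next at 8.65, and it was the vehicle array scanned on the same date as the DQ-12 arrays. The D30 DQ-12 replicate 4 had a Prf1 signal of 10.86, with the next at 11.53. The D180 DQ-12 replicate 2 had a Gzmm signal of 10.51, with the next at 11.32. The D1 DQ-12 replicate 6 had an Ifng signal of 2.84, not well above background, with the next at 2.06.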

How the results depend on the processing

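None of the 10 genes passed the 2-fold rule at D30 or D180 under any alternative, and none passed the adjusted p there. At D1 the count past the adjusted p was 2 with each time point fitted alone (Klrd1 and Ifng), 0 with the scan date as a block and 0 as a random block, and between 0 and 1 when single rats were left out. The count passing the fold rule at D1 was 1 (Klrd1) with the slide as a block or with a fold of at least 1.5. The only slide with both groups at D1 held 1 vehicle array, replicate 3, whose Klrd1 signal stood above the other vehicle rats, and 4 DQ-12 arrays. The Klrd1 difference at D1 lay between -1.27 and -0.59 (adjusted p 0.0126 to 0.271).

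Several uncalled differences changed sign, among them some not near 0, such as Gzmm at D180 (-0.29) and Ncr1 at D1 (-0.26). Prf1 at D180 was 0 with normexp correction, 0.03 with the deposited values, 0.03 with 75th percentile scaling and 0.09 with the slide block. Gzmb at D1 was 0.04 with the median of its probes, and at D30 it was -0.12 with the scan date block, -0.07 with the slide block and -0.02 with the random scan block. Ncr1 at D1 was 0.42 with the scan date block and 0.31 with the slide block, and Klrk1 at D30 was 0.01 with each. The slide block gave 0.49 for Gzmk, 0.44 for Gzmm, 0.47 for Nkg7 and 0.31 for Klrd1 at D180. Leaving out single rats gave ranges of -0.4 to 0.27 for Ncr1 and -0.19 to 0.02 for Klrk1 at D1, and -0.01 to 0.21 for Gzmb at D30. At D180 the ranges were -0.18 to 0.22 for Prf1, -0.12 to 0.27 for Gzmb, -0.02 to 0.32 for Gzma, -0.24 to 0.09 for Gzmk, -0.11 to 0.12 for Nkg7 and -0.32 to 0.08 for Klrd1. The causes were not tested.

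Same-numbered rats did not deviate together (r between -0.13 and 0.22), and with a replicate block the D1 count past the adjusted p stayed at 1 and the others at 0. Over all genes, normexp correction called 214, 102 and 326 genes at D1, D30 and D180 in place of 736, 252 and 868, as its offset narrows dim differences. At D1, 75th percentile scaling called 337 higher and 577 lower in place of 484 and 252. Dim probes such as Ifng and Klra5 limit what the arrays can show.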
